A study of Homo sapiens with 18 samples.

Results

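The genes described here are 8 that encode the core of human polyamine metabolism: ODC1, AMD1, SRM, SMS, SAT1, OAZ1, OAZ2 and AZIN1. They were chosen by symbol among the 28063 genes listed in the deposited count files, all 8 were found, and all 8 were among the 12853 genes that passed the filter on low counts. The series measured newly made messenger RNA in neuroblastoma cells after SMARCA4, the ATPase of SWI/SNF chromatin remodelling complexes, had been inhibited or degraded. Wild-type cells of the established lines KELLY, SK-N-DZ and IMR-32, all with amplified MYCN, were exposed to BRM014 at 1 uM, which blocks the ATPase activity of SMARCA4 and of its paralog SMARCA2, or to DMSO. IMR-32 cells engineered to carry SMARCA4 with a mini auxin-inducible degron (SMARCA4-mAID) were exposed to auxin (indole-3-acetic acid) at 500 uM or to ethanol. These 8 groups had 2 libraries each and were labelled with 500 uM of the uridine analogue 4-thiouridine (4sU) for 2 h before harvest, and 2 further KELLY libraries came from cells given neither drug nor 4sU. The exposure time to BRM014 and auxin, and whether the degron line is 1 clone, are not stated in the labels. IMR-32 cells were grown in MEM and the other lines in DMEM, so that line and medium cannot be told apart. Whether the 2 libraries of a group were separate cultures is not stated in the labels, so the p-values below reflect the scatter of these libraries only, and that scatter may be technical.

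Polyamines are small positively charged molecules that bind RNA and are needed for translation and growth. ODC1, ornithine decarboxylase, makes putrescine from ornithine, and AMD1, S-adenosylmethionine decarboxylase, makes the aminopropyl donor with which SRM (spermidine synthase) and SMS (spermine synthase) extend putrescine to spermidine and spermine. SAT1 acetylates spermidine and spermine and so starts their breakdown and export, the antizymes OAZ1 and OAZ2 bind ODC1 protein and direct it to the proteasome, and AZIN1, an ODC1 relative without enzyme activity, binds antizymes and frees ODC1. ODC1 is a textbook target of MYC and MYCN, which bind the E-box CACGTG, and it is amplified together with MYCN in some neuroblastomas.

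The start regions of the 4 members that were lower on average over the 3 lines with BRM014 are shown first, because a motif known for MYC-family factors can be looked for in them. The windows run from 250 bases before to 50 after an annotated start, are written 5′ to 3′ on the gene's strand and come from RefSeq on GRCh38.p14. Capitals mark CACGTG, which reads the same on both strands.
ODC1, chr2:10447963-10448262, minus strand: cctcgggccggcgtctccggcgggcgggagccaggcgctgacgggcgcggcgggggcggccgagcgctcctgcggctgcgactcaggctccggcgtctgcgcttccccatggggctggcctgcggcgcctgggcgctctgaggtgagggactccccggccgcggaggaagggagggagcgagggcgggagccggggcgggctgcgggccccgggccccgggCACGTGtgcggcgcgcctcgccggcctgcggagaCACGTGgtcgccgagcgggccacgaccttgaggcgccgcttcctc
AMD1, chr6:110874535-110874834, plus strand: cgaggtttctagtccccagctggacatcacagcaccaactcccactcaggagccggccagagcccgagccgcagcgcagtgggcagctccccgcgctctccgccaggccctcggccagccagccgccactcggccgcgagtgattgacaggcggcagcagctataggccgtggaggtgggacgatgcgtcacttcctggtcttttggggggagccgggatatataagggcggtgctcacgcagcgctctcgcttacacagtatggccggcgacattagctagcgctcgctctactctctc
SRM, chr1:11059969-11060268, minus strand: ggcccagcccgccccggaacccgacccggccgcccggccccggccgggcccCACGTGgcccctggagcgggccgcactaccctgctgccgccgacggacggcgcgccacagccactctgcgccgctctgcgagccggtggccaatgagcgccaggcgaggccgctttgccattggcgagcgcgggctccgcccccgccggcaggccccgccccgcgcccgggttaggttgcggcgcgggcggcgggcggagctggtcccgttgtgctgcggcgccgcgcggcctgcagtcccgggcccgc
OAZ1, chr19:2269236-2269535, plus strand: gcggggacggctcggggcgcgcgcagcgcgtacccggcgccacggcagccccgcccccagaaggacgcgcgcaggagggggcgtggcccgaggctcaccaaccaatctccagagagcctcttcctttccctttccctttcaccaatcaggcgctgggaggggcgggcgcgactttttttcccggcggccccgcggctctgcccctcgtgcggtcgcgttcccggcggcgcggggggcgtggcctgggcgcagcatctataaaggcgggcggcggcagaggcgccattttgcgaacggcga
A window was found for 7 of the 8 members, 10 windows in all, and none was used for AZIN1. CACGTG occurred 2 times in the ODC1 window shown, at positions -29 and 6 from the start, and 1 time in that of SRM, at position -199. A second ODC1 window, chr2:10448278-10448577, lies upstream of the one shown and spans the annotated 5′ end of the gene at 10448504. This second window and the windows of AMD1, SMS, SAT1, OAZ1 and OAZ2 did not hold these letters. Which ODC1 start is used in these cells was not tested. Among all 35116 RefSeq windows of this length, 7.26% held CACGTG on either strand. The letters TATAA, searched on both strands, were in the second ODC1 window and in those of AMD1 and OAZ1 shown, against 20.4% of all windows. A match is a description of the letters and was not tied to binding in these cells.

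Gene counts ranged from 724913 to 1740475 per labelled library, and the BRM014 libraries of IMR-32 and SK-N-DZ had the lowest, with at most 775064, against at least 1148208 in their DMSO libraries. In the unlabelled KELLY libraries there were 5395 and 4432 gene counts. Of the members, ODC1 had 1 and 0 counts and SRM 0 and 1 count in these 2 libraries, and the other 6 had 0, so that no member exceeded 3 counts, the limit that a count of 0 allows, without 4sU. SMARCA4 RNA was not called in any treatment comparison: 74.1 and 76.1 CPM (gene counts scaled to the same total in each library) with BRM014 and 85.5 and 102 CPM with DMSO in IMR-32, 644 and 584 CPM with auxin and 724 and 842 CPM with ethanol in the degron line. Auxin acts on the protein, which these counts do not measure. The summed level of 7 adrenergic neuroblastoma markers was 6197 to 14390 CPM in the labelled libraries and that of 6 mesenchymal markers 182 to 520 CPM. Sets of 3 leukocyte, 2 endothelial and 3 epithelial markers summed to at most 12.6, 1.39 and 3.63 CPM, each with 1 gene at 0 in all 16 libraries. The mesenchymal sum was 492.2 to 519.8 CPM with BRM014 and 182.3 to 234.6 CPM with DMSO in KELLY, 328.9 to 345.8 CPM against 426.2 to 445.0 CPM in IMR-32 and 400.9 to 469.0 CPM against 361.8 to 372.9 CPM in SK-N-DZ, and it was 444.5 to 485.1 CPM with auxin and 365.9 to 418.7 CPM with ethanol. The adrenergic sum, which includes MYCN, was 13380 to 14390 CPM with BRM014 and 10770 to 10860 CPM with DMSO in SK-N-DZ, and 6197 to 6328 CPM against 7465 to 8250 CPM in IMR-32. MYCN, whose values are given below, made up the larger part of the sum in both lines and moved the same way. In KELLY (9727 to 10060 CPM against 9884 to 11120 CPM) the groups overlapped. MYCN itself was lower with BRM014 there (log2 fold change -0.52), so that the other markers of the set together were higher. The part of these markers and of depth in the results below was not tested.

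In vehicle-treated cells the decarboxylases were the most abundant members per kilobase of transcript in all 4 groups, and SAT1 the least. Levels between genes are given here as CPM per kilobase, which leaves the different uridine content of the transcripts uncorrected (32.8% thymidine in the AMD1 sequence and 18.6% in that of SRM). In SK-N-DZ with DMSO, ODC1 and AMD1 were at 155 and 154 CPM per kilobase, with overlapping libraries, followed by SRM at 90.9 and OAZ1 at 88.3, which overlapped too. AZIN1 at 44.3, SMS at 33.7, OAZ2 at 27.4 and SAT1 at 3.98 came next without overlap. In KELLY with DMSO the order was AMD1 at 177 and ODC1 at 165, which overlapped, then OAZ1 at 97.6, AZIN1 at 79.8, SRM at 49.97, OAZ2 at 36.5 and SMS at 32.6, the last pair overlapping, and SAT1 at 7.21. The ethanol-treated degron line had ODC1 at 165 and AMD1 at 148, with AZIN1 (62.9) and OAZ1 (58.1) overlapping each other, as did SMS (25.5) and OAZ2 (24.7), and with SRM at 17.6 and SAT1 at 9.598. IMR-32 with DMSO had AMD1 at 271, ODC1 at 189, AZIN1 at 72.1, OAZ1 at 60.6, OAZ2 at 38.3, SMS at 19.8, SRM at 12.2 and SAT1 at 5.96, with no overlap between neighbours. SRM thus took the third place in SK-N-DZ, the fifth in KELLY and the seventh in both IMR-32 lines.

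**Figure D1:**
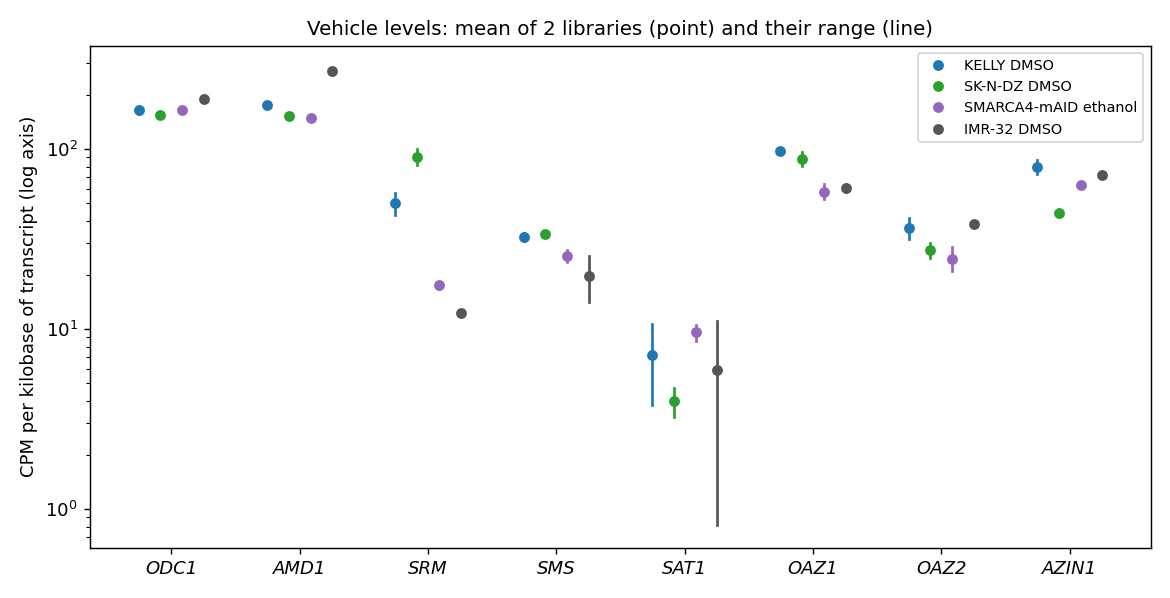
Mean level of each member in vehicle-treated cells, in CPM per kilobase of transcript on a log axis, with a line from the lower to the higher of 2 libraries. On this log axis, without correction for GC content, SRM spans the widest range between lines, from 12.2 in IMR-32 to 90.9 in SK-N-DZ. ODC1 stays between 155 and 189.

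With BRM014, newly made ODC1 and AMD1 RNA fell in all 3 lines, and OAZ1 fell in KELLY and SK-N-DZ. The 2 aminopropyl transferases SRM and SMS fell in SK-N-DZ, AZIN1 rose there, and none was called higher in IMR-32 or KELLY. Of the 8 members, 2 were called lower and 0 higher in IMR-32. In KELLY 3 were lower and 0 higher, and for SK-N-DZ the counts were 5 and 1 (edgeR quasi-likelihood test, Benjamini-Hochberg adjusted p below 0.05 over all genes). Of all genes tested, 12.8% were called in IMR-32 (6.57% lower, 6.26% higher), 11.6% for KELLY (4.98% lower, 6.57% higher) and 19.4% for SK-N-DZ (9.55% lower, 9.88% higher). Both BRM014 libraries were below both DMSO libraries for 4 members in IMR-32, 7 for KELLY and 5 for SK-N-DZ, against 29.5%, 27.2% and 30.9% of all genes. They were above both for 2, 0 and 2 members, against 21.8%, 23.1% and 25.3% of all genes. The median log2 fold change of the members was -0.24 in IMR-32 (all genes tested, -0.02), -0.50 for KELLY (all genes, 0) and -0.67 for SK-N-DZ (all genes, -0.04). With a correction for transcript GC content and length the median of the members was 0.01 in IMR-32 (all genes, -0.01), -0.48 for KELLY (all genes, 0) and -0.39 for SK-N-DZ (all genes, 0.02). The correction left 3 members lower and 1 higher in SK-N-DZ, 1 lower and 0 higher in IMR-32, and 4 lower and 0 higher in KELLY. Fewer of all genes were called too, 1758 in SK-N-DZ, 1401 in IMR-32 and 1231 in KELLY, of 12519 with GC and length. Without the correction 2498, 1650 and 1485 of 12853 were called. In the mean of the 3 line effects, 4 members were lower and 0 higher, where 30.2% of all genes were called, 15.3% lower and 14.8% higher. Their median there was -0.42 (all genes, -0.04), and with the correction it was -0.16 (all genes, -0.01) with 3 lower and 1 higher. Of all genes, 2946 were called in the mean with the correction and 3879 without it. Each change is measured against the rest of its library, and in bulk samples fewer cells with a transcript and less of it per cell cannot be told apart.

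**Figure D2:**
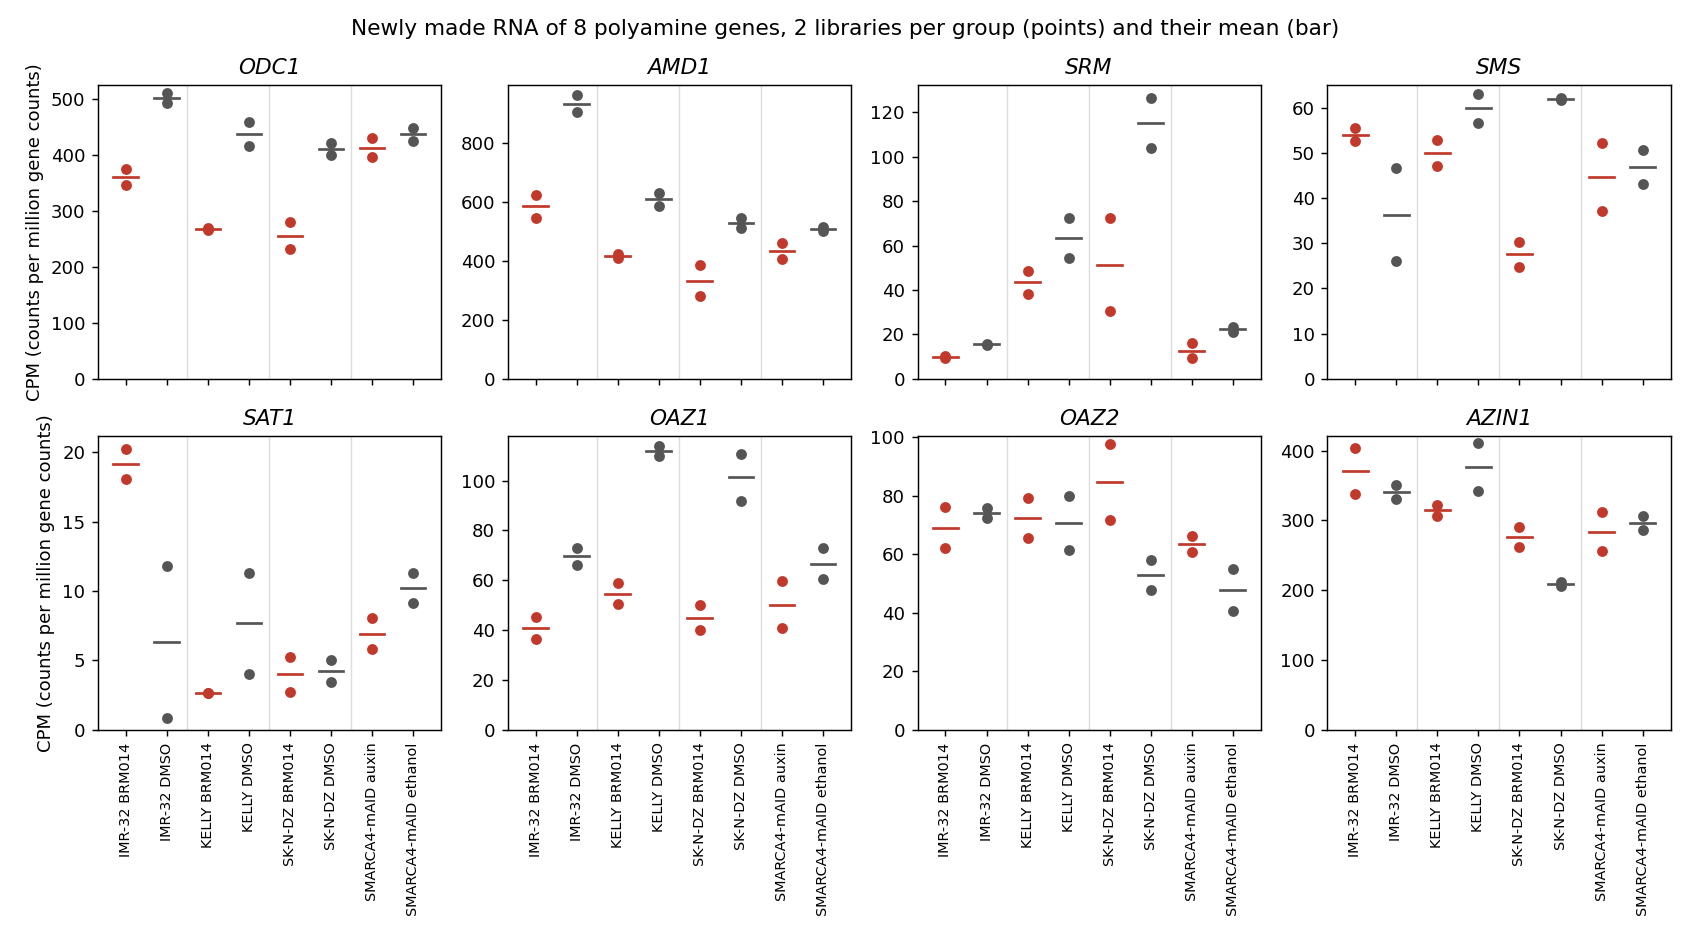
CPM of the 8 members in each labelled library (points) with the mean of 2 libraries (bar), treated groups in red and left of their vehicle in grey. ODC1, AMD1 and OAZ1 lie lower with BRM014 in each of the 3 lines, while the auxin and ethanol points of ODC1 overlap.

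ODC1 (chr2:10439968-10448504, minus strand, GRCh38) had 375 and 346 CPM with BRM014 and 494 and 511 CPM with DMSO in IMR-32. In KELLY it had 269 and 267 CPM with BRM014 and 417 and 459.6 CPM with DMSO, and in SK-N-DZ 232 and 279.6 CPM against 421 and 399.9 CPM. Both BRM014 libraries were below both DMSO libraries in each line. The log2 fold change was -0.43 (SE 0.12, adjusted p = 0.00699) in IMR-32, -0.66 (SE 0.11, adjusted p = 4.55e-06) in KELLY and -0.67 (SE 0.12, adjusted p = 1.11e-05) in SK-N-DZ by edgeR. In IMR-32 the call was lost when BRM014 replicate 2 (-0.41, adjusted p = 0.0766) or DMSO replicate 2 (-0.42, adjusted p = 0.0549) was left out, and with a correction for transcript GC content and length (-0.30, adjusted p = 0.0844). Over the 3 lines ODC1 averaged -0.59 (SE 0.07, adjusted p = 1.06e-11), and the effect was not called different among lines (adjusted p = 0.610).

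AMD1 (chr6:110874770-110895713, plus strand) had 621 and 546 CPM with BRM014 and 961 and 902 CPM with DMSO in IMR-32, 423 and 410.0 CPM against 585 and 630.3 CPM in KELLY, and 386 and 279.6 CPM against 511 and 545 CPM in SK-N-DZ. The groups did not overlap in any line, and SK-N-DZ BRM014 replicate 2 was the lowest of the 16 labelled libraries. The log2 fold change was -0.63 (SE 0.11, adjusted p = 6.42e-06) in IMR-32, -0.50 (SE 0.11, adjusted p = 0.000314) in KELLY and -0.66 (SE 0.12, adjusted p = 4.62e-06) in SK-N-DZ by edgeR. AMD1 transcripts have 38.0% GC, the lowest of the members, and with the GC and length correction the values were -0.86 in IMR-32, -0.68 in KELLY and -0.99 in SK-N-DZ, all called. ODC1 and AMD1 were the members called lower in all 3 lines, as were 182 of the 12853 genes tested, or 1.42%, while 0 members and 1.84% of all genes were called higher in all 3. These 3 comparisons have separate control libraries.

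SRM (chr1:11054584-11060024, minus strand) had few counts in IMR-32, 7 and 8 with BRM014 and 22 and 18 with DMSO, and its change there was not called (-0.59, SE 0.53, adjusted p = 0.518). In KELLY it had 48.5 and 38.4 CPM with BRM014 and 72.3 and 54.2 CPM with DMSO, without overlap and without a call (-0.51, SE 0.31, adjusted p = 0.342). In SK-N-DZ it had 30.3 and 72.5 CPM with BRM014, which lie far apart, and 104 and 126 CPM with DMSO. The decrease there was called (log2 fold change -1.15, SE 0.32, adjusted p = 0.00525 by edgeR). Without SK-N-DZ BRM014 replicate 1 the value was -0.67 (adjusted p = 0.278) and without DMSO replicate 2 it was -0.999 (adjusted p = 0.0887), while without BRM014 replicate 2 SRM was at -1.91 and called. SRM transcripts have 63.7% GC, the highest of the members, and with the GC and length correction SRM was at -0.33 in SK-N-DZ (adjusted p = 0.571), 0.11 in KELLY (adjusted p = 0.903) and -0.07 on average (adjusted p = 0.889, against -0.75 and 0.00693 uncorrected).

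SMS (chrX:21940573-21994835, plus strand) differed between lines. In SK-N-DZ it had 24.8 and 30.3 CPM with BRM014 and 61.7 and 62.1 CPM with DMSO, which do not overlap (log2 fold change -1.15, SE 0.35, adjusted p = 0.00900 by edgeR). In KELLY it had 47.2 and 52.9 CPM with BRM014 and 56.6 and 63.1 CPM with DMSO (-0.21, adjusted p = 0.742). In IMR-32 both BRM014 libraries, at 52.6 and 55.5 CPM, were above both DMSO libraries, at 46.6 and 26.1 CPM, and the value of 0.60 (SE 0.33) was not called (adjusted p = 0.248). SMS was the 1 member of 8 whose BRM014 effect was called different among the lines (edgeR test of 2 contrasts, adjusted p = 0.0321), where 6.47% of all genes were. The call was lost on leaving out IMR-32 BRM014 replicate 1 (adjusted p = 0.0742) or 2 (0.0993), IMR-32 DMSO replicate 2 (0.181), SK-N-DZ BRM014 replicate 1 (0.125) or 2 (0.0573), or SK-N-DZ DMSO replicate 1 (0.0868) or 2 (0.0810), and without the filter on low counts (0.0586). The SK-N-DZ decrease was itself not called without BRM014 replicate 1 (-1.03, adjusted p = 0.108).

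SAT1 (chrX:23783173-23786226, plus strand), the catabolic member, was the least counted member. Its counts were 15 and 14 with BRM014 and 17 and 1 with DMSO in IMR-32, 4 and 4 against 18 and 5 in KELLY, and 2 and 4 against 8 and 6 in SK-N-DZ. The log2 fold changes of 1.57 (SE 0.82), -1.49 (SE 0.94) and -0.06 (SE 1.03) were not called, the mean over lines was 0.01 (adjusted p = 1.00), and a difference was not detectable at this depth. In IMR-32 SAT1 was called when DMSO replicate 1 was left out (4.36, adjusted p = 0.0438), which leaves the DMSO library with 1 count as the only control.

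Among the regulators of ODC1 protein, OAZ1 (chr19:2269509-2273490, plus strand) had the largest average decrease of the members before correction for GC content and length, after which that of AMD1 was larger (-0.84). OAZ1 had 36.4 and 45.2 CPM with BRM014 and 73.0 and 66.2 CPM with DMSO in IMR-32, 50.5 and 58.9 CPM against 110.0 and 114 CPM in KELLY, and 40.0 and 50.1 CPM against 111 and 91.9 CPM in SK-N-DZ. No BRM014 library reached its DMSO libraries. The log2 fold change was -0.99 (SE 0.25, adjusted p = 0.00242) in KELLY, -1.16 (SE 0.28, adjusted p = 0.000932) in SK-N-DZ, and -0.72 (SE 0.30) in IMR-32, where it was not called (adjusted p = 0.0915 by edgeR). On average it fell by 0.96 (SE 0.16, adjusted p = 5.22e-07), and the effect was not called different among lines (adjusted p = 0.825). With the GC and length correction the average was -0.62 (adjusted p = 0.00139), the SK-N-DZ call was lost (-0.73, adjusted p = 0.0640) and the KELLY value was -0.71 (adjusted p = 0.0487). The KELLY call was also lost without BRM014 replicate 1 (-0.90, adjusted p = 0.0590).

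OAZ2 (chr15:64687573-64703281, minus strand), the second antizyme, was not called in any line. It had 62.0 and 76.1 CPM with BRM014 and 75.8 and 72.3 CPM with DMSO in IMR-32, and 79.0 and 65.5 CPM against 79.9 and 61.5 CPM in KELLY, with overlap in both. In SK-N-DZ both BRM014 libraries, at 71.7 and 97.6 CPM, were above both DMSO libraries, at 47.8 and 58.0 CPM, and the value of 0.68 (SE 0.27) was not called (adjusted p = 0.0626 by edgeR). With the GC and length correction it was called there (1.01, adjusted p = 0.00409) and on average (0.48, adjusted p = 0.0132, against 0.23 and 0.265 uncorrected).

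AZIN1 (chr8:102826357-102893864, minus strand) rose in SK-N-DZ, with 291 and 262 CPM with BRM014 and 206 and 212 CPM with DMSO (log2 fold change 0.41, SE 0.14, adjusted p = 0.0207 by edgeR). The rise was not called with the GC and length correction (0.22, adjusted p = 0.312), nor without SK-N-DZ BRM014 replicate 1 (0.33, adjusted p = 0.218), DMSO replicate 1 (0.41, adjusted p = 0.0778) or DMSO replicate 2 (0.43, adjusted p = 0.0709). In IMR-32 it had 338 and 404 CPM with BRM014 and 351 and 330.1 CPM with DMSO, and in KELLY 307 and 323 CPM against 342 and 411 CPM, with values of 0.17 (adjusted p = 0.433) and -0.21 (adjusted p = 0.302). In KELLY the corrected value was called lower (-0.38, adjusted p = 0.0275). The mean over lines was 0.12 (adjusted p = 0.214), and -0.04 with the correction. The AZIN1 effect was not called different among lines (adjusted p = 0.0531 by edgeR), but it was under 6 of the 8 alternatives that keep all libraries, with adjusted p of 0.0361 to 0.0485. Its antisense gene AZIN1-AS1 had 0 to 9 counts per library and the opposite-strand neighbour of OAZ1, JSRP1, had 0 to 4. Whether the counting used strand is not stated, so reads of these pairs cannot be told apart.

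**Figure D3:**
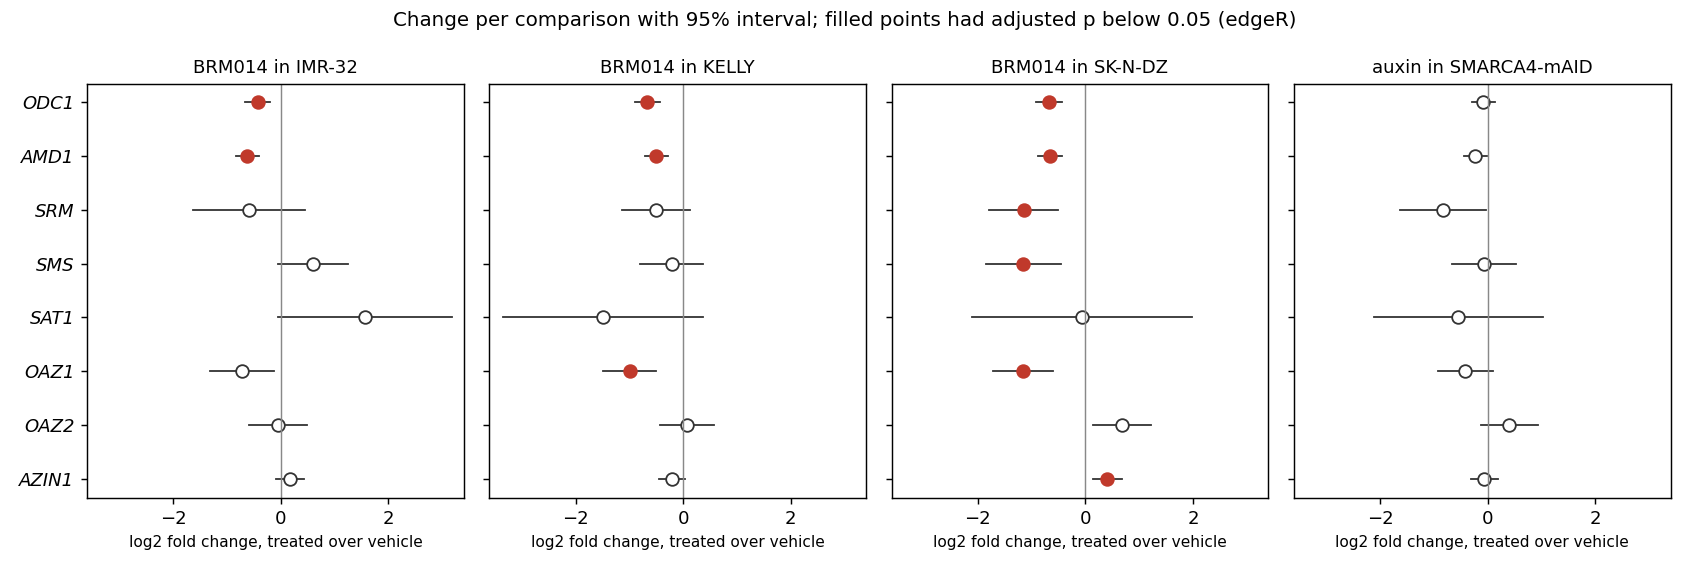
Log2 fold change of each member, treated over vehicle, with its 95% interval from edgeR in the 4 treatment comparisons. Filled points, with adjusted p below 0.05, are ODC1 and AMD1 in all 3 BRM014 panels, OAZ1 in 2 of them, and SRM, SMS and AZIN1 in SK-N-DZ, and there is none with auxin.

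MYCN RNA, listed beside the members as a regulator of ODC1, fell in IMR-32 and KELLY and rose in SK-N-DZ. It had 3402 and 3335 CPM with BRM014 and 5014 and 4518 CPM with DMSO in IMR-32, 4883 and 4543 CPM against 7560.4 and 6347 CPM in KELLY, and 8445 and 8780.3 CPM against 6258 and 6518 CPM in SK-N-DZ. Its log2 fold changes were -0.45, -0.52 and 0.44, and they differed among lines (edgeR, adjusted p = 1.75e-16). ODC1 was lower in all 3 lines, with the values given above. A link between the ODC1 and MYCN changes was not tested, and MYCN protein was not measured. With the GC and length correction MYCN was at -0.09 in IMR-32 (adjusted p = 0.327), -0.23 in KELLY and 0.96 in SK-N-DZ. With auxin MYCN had 5843 and 6586 CPM, against 5654 and 5534 CPM with ethanol, without overlap. The value of 0.15 (SE 0.06) was not called (adjusted p = 0.255 by edgeR), and with the correction it was 0.29 and called (adjusted p = 0.000306). MYC had 0 to 4 counts per labelled library.

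In the degron line no member was called with auxin. ODC1 had 396 and 431 CPM with auxin and 426 and 448 CPM with ethanol, which overlap (log2 fold change -0.08, 95% interval -0.30 to 0.14, adjusted p = 0.883 by edgeR). AMD1 had 405 and 458 CPM with auxin and 501 and 516 CPM with ethanol, without overlap (-0.23, 95% interval -0.45 to -0.02 and adjusted p = 0.350 by edgeR). SRM had 22 and 15 counts with auxin and 32 and 38 with ethanol (-0.83, SE 0.40, 95% interval -1.63 to -0.03, adjusted p = 0.389 by edgeR). Of the 8 members 0 passed edgeR's adjusted threshold, 2 had an unadjusted p below 0.05 and 0 were called by DESeq2, while 2.19% of all genes tested were called by edgeR, 1.16% lower and 1.03% higher. Both auxin libraries were below both ethanol libraries for 4 members, against 20.4% of all genes, and above them for 1, against 21.7%. The log2 fold change was negative for 7 of the 8 members and for 6261 of the 12853 genes tested. Its median over the members was -0.16 (all genes, 0), and -0.20 with the GC and length correction (all genes, 0.02).

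For the other members the values with auxin were as follows. OAZ1 had 59.6 and 40.9 CPM with auxin and 73.0 and 60.4 CPM with ethanol (-0.42, adjusted p = 0.578). OAZ2 had 66.1 and 60.8 CPM against 40.5 and 54.9 CPM (0.41, adjusted p = 0.614). SMS at 37.0 and 52.1 CPM against 43.2 and 50.7 CPM and AZIN1 at 256 and 312 CPM against 307 and 287 CPM overlapped, and SAT1 had 8 and 13 counts with auxin and 17 and 15 with ethanol. The difference between the BRM014 effect on wild-type IMR-32 cells and the auxin effect was called for 0 of the 8 members by edgeR and by DESeq2, against 1.95% of all genes (0.887% lower and 1.06% higher), and 2 had an unadjusted p below 0.05. These were AMD1, with a difference of -0.39 (95% interval -0.70 to -0.09, adjusted p = 0.215 by edgeR), and ODC1, with -0.35 (95% interval -0.67 to -0.03, adjusted p = 0.341 by edgeR). With the GC and length correction the AMD1 difference was called (-0.52, adjusted p = 0.0396). The arms differ in vehicle and in the engineered allele as well as in the agent.

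Within a library, the ratio of 1 member's counts to another's does not depend on scaling between libraries. Ratios to OAZ1 and to AZIN1 were formed after the values had been seen and are given without a test. OAZ1 had the largest average decrease of the members before correction, and ratios of other genes to OAZ1 were not formed for comparison. Counts of AZIN1 per count of OAZ1 were 9.30 and 8.94 with BRM014 and 4.81 and 4.99 with DMSO in IMR-32, 6.08 and 5.48 against 3.11 and 3.603 in KELLY, and 7.28 and 5.24 against 1.86 and 2.31 in SK-N-DZ. Each BRM014 library was above both DMSO libraries of its line. Counts of OAZ2 per count of OAZ1 were 1.70 and 1.69 with BRM014 and 1.04 and 1.09 with DMSO in IMR-32, 1.57 and 1.11 against 0.726 and 0.539 in KELLY, and 1.79 and 1.95 against 0.432 and 0.631 in SK-N-DZ. Here too each BRM014 library was above both DMSO libraries of its line. Counts of ODC1 per count of AZIN1 were 1.11 and 0.856 with BRM014 and 1.41 and 1.55 with DMSO in IMR-32. They were 0.877 and 0.826 against 1.22 and 1.12 in KELLY, and 0.796 and 1.065 against 2.04 and 1.89 in SK-N-DZ. Each BRM014 library was below both DMSO libraries of its line, also for AMD1 per AZIN1. The auxin and ethanol libraries overlapped for ODC1 per AZIN1 and not for AMD1 per AZIN1. These ratios to AZIN1 were not corrected for GC content.

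With auxin, OAZ2 per OAZ1 was 1.11 and 1.49, against 0.555 and 0.909 with ethanol, and AZIN1 per OAZ1 was 4.29 and 7.62 against 4.20 and 4.75, which overlap. ODC1 per OAZ1 was at 10.3 and 7.66 with BRM014 and 6.76 and 7.72 with DMSO in IMR-32, which overlap, 5.33 and 4.53 against 3.79 and 4.03 in KELLY, and 5.79 and 5.58 against 3.80 and 4.35 in SK-N-DZ. The difference between the ODC1 and OAZ1 log2 changes was 0.12 with the GC and length correction for IMR-32 (0.29 without correction), 0.14 for KELLY (0.33) and 0.27 for SK-N-DZ (0.48). The correction lowered the difference between the AZIN1 and OAZ1 log2 changes to 0.46 for IMR-32 (0.89 without correction), 0.33 for KELLY (0.78) and 0.95 for SK-N-DZ (1.57). For OAZ2 and OAZ1 it moved to 0.58 for IMR-32 (0.67 without correction), 0.97 for KELLY (1.06) and 1.74 for SK-N-DZ (1.84). OAZ1 and OAZ2 transcripts have similar GC content, 54.0% and 52.8%, and that of AZIN1 is 42.3%.

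**Figure D4:**
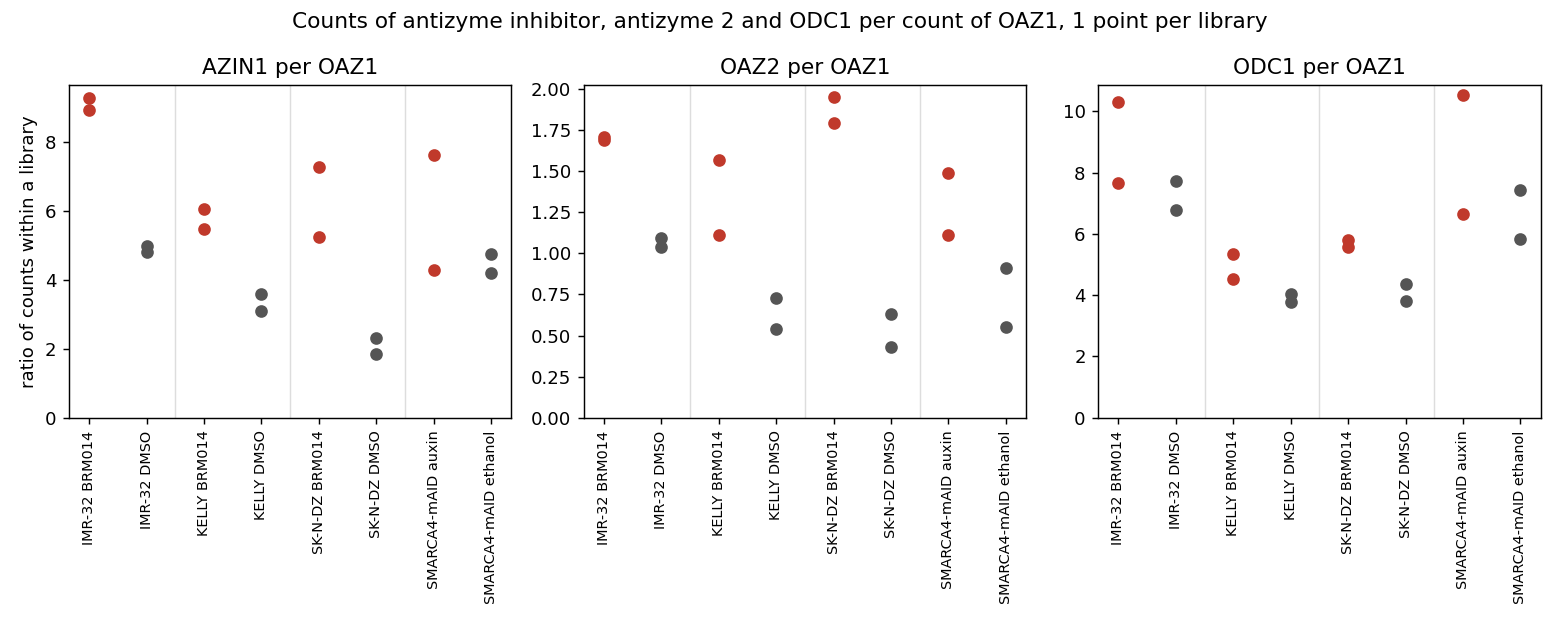
Counts of AZIN1, OAZ2 and ODC1 divided by counts of OAZ1 in the same library, 1 point per library, treated groups in red and left of their vehicle in grey. AZIN1 per OAZ1 and OAZ2 per OAZ1 are higher in every BRM014 library than in both DMSO libraries of its line, and ODC1 per OAZ1 overlaps in IMR-32. The level of OAZ1, the shared denominator, is itself lower with BRM014 in each line.

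Between lines with vehicle alone, AMD1 and ODC1 were lower in KELLY and SK-N-DZ than in IMR-32, and SRM was higher. These comparisons use the same DMSO libraries as the treatment comparisons. In KELLY over IMR-32, AMD1 was at -0.77 (SE 0.10, adjusted p = 1.36e-09), ODC1 at -0.35 (SE 0.11, adjusted p = 0.00746) and SRM at 1.88 (SE 0.37, adjusted p = 1.11e-05) on the log2 scale, by edgeR. They made 2 lower and 1 higher of 8 members, where 39.6% of all genes were called (21.6% lower, 18.1% higher). Libraries of KELLY were below both of IMR-32 for 2 members and above for 3, against 29.1% and 40.3% of all genes. In SK-N-DZ over IMR-32, AMD1 was at -0.96, AZIN1 at -0.85, OAZ2 at -0.62 and ODC1 at -0.43, and SRM at 2.75 (SE 0.36, adjusted p = 1.84e-10). They made 4 lower and 1 higher of 8, against 44.1% of all genes (22.9% lower, 21.2% higher). Libraries of SK-N-DZ were below both of IMR-32 for 4 members and above for 3, against 30.7% and 42.3% of all genes. In SK-N-DZ over KELLY, AZIN1 was lower (-0.83, adjusted p = 4.87e-08) and SRM higher (0.87, adjusted p = 0.0168), 1 each of 8, against 31.8% of all genes (15.2% lower, 16.6% higher). SK-N-DZ libraries were below both of KELLY for 3 members and above for 1, against 31.1% and 34.9% of all genes.

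The SRM differences shrank with the GC and length correction to 0.88 in KELLY over IMR-32 (adjusted p = 0.0466), 1.24 in SK-N-DZ over IMR-32 (adjusted p = 0.00275) and 0.36 in SK-N-DZ over KELLY, where it was no longer called (adjusted p = 0.371). With library totals as the only scaling, the median of all genes moved to 0.17 in both comparisons with IMR-32, where it was 0.01 and 0.03, and ODC1 in KELLY (-0.20, adjusted p = 0.153) and OAZ2 in SK-N-DZ (-0.48, adjusted p = 0.125) were not called. OAZ1 was then called higher in KELLY (0.68, adjusted p = 0.0188) and SMS in SK-N-DZ (0.75, adjusted p = 0.0361), which made 1 lower and 2 higher in KELLY and 3 lower and 2 higher in SK-N-DZ. Of all genes, 5228 were called in KELLY and 5617 in SK-N-DZ with this scaling. The GC and length correction moved the median of all genes to -0.12 in SK-N-DZ over IMR-32. ODC1 in KELLY was not called either without IMR-32 DMSO replicate 2 (-0.33, adjusted p = 0.0606) or KELLY DMSO replicate 1 (-0.31, adjusted p = 0.0888), nor SRM in SK-N-DZ over KELLY without KELLY DMSO replicate 2 (0.67, adjusted p = 0.205) or SK-N-DZ DMSO replicate 2 (0.71, adjusted p = 0.188). The OAZ2 call in SK-N-DZ over IMR-32 was lost on leaving out IMR-32 DMSO replicate 1 (-0.59, adjusted p = 0.166) or 2 (-0.66, 0.0965), or SK-N-DZ DMSO replicate 1 (-0.53, 0.203) or 2 (-0.79, 0.0555). Without IMR-32 DMSO replicate 1, SMS was called higher in KELLY (1.04, adjusted p = 0.0478) and in SK-N-DZ (1.10, adjusted p = 0.0302).

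The degron line with ethanol differed from wild-type IMR-32 with DMSO in 1 of the 8 members. AMD1 had 501 and 516 CPM with ethanol in the degron line and 961 and 902 CPM with DMSO in IMR-32 (log2 fold change -0.90, SE 0.10, adjusted p = 9.06e-11 by edgeR), where 6.16% of all genes were called, 3.49% lower and 2.67% higher. Ethanol libraries were below both DMSO libraries for 4 members and above for 1, against 21.8% and 24.8% of all genes. The AMD1 level of the degron line with ethanol was below that of IMR-32 with BRM014, at 621 and 546 CPM. ODC1 was at -0.23 (adjusted p = 0.261) and OAZ2 at -0.66 (adjusted p = 0.138), which was called with the GC and length correction (-0.80, adjusted p = 0.0475). SMARCA4 RNA was itself higher in the degron line with ethanol than in IMR-32 with DMSO (3.04, adjusted p = 3.01e-33 by edgeR), as was MYCN (0.20, adjusted p = 0.0320), and their part in the AMD1 difference was not tested. The engineered line and the vehicle differ together here and cannot be told apart.

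A wider list of 29 genes around the pathway was read beside the members, 23 of which passed the filter on low counts. PAOX, SLC22A4, OAZ3, AZIN2, ARG1 and AGMAT, with at most 4, 14, 7, 5, 10 and 9 counts in any labelled library, did not. Of the 23, 1 was called lower and 1 higher in IMR-32 with BRM014. In KELLY 3 were lower and 1 higher, for SK-N-DZ 7 and 2, and with auxin 0 and 0, where 3 had an unadjusted p below 0.05. The shares of all genes called are those given above. SLC3A2, the heavy chain of amino acid exchangers that has also been linked to polyamine export, was lower in all 3 lines. It had 121 and 117 CPM with BRM014 and 207 and 231 CPM with DMSO in IMR-32, 178 and 194 CPM against 303 and 319.6 CPM in KELLY, and 156 and 164 CPM against 305 and 275 CPM in SK-N-DZ. Its log2 fold changes of -0.82, -0.70 and -0.85 (SE 0.16, 0.14 and 0.15) were not called with the GC and length correction in any line (-0.42, -0.34 and -0.26).

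SLC25A15, the mitochondrial ornithine carrier, rose in IMR-32 and SK-N-DZ. It had 136 and 111 CPM with BRM014 and 58.4 and 56.6 CPM with DMSO in IMR-32 (1.15, SE 0.26, adjusted p = 0.000667 by edgeR) and 59.3 and 129 CPM against 42.8 and 51.7 CPM in SK-N-DZ (1.00, SE 0.26, adjusted p = 0.00289). Without SK-N-DZ BRM014 replicate 2 the SK-N-DZ value was 0.34 (adjusted p = 0.588). In KELLY, with 100.3 and 95.9 CPM against 62.9 and 68.0 CPM, the value of 0.63 was called only with the GC and length correction (0.75, adjusted p = 0.0295). SLC25A15 had 5 counts in each of the 2 unlabelled KELLY libraries.

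SLC7A1, the cationic amino acid transporter that imports arginine, rose in KELLY and fell in SK-N-DZ. It had 701 and 729 CPM with BRM014 and 448 and 513 CPM with DMSO in KELLY (0.62, SE 0.11, adjusted p = 4.55e-06 by edgeR), and 288 and 309.9 CPM against 418 and 452 CPM in SK-N-DZ (-0.53, SE 0.12, adjusted p = 0.000320). In IMR-32 it had 364 and 351 CPM against 412 and 451 CPM (-0.22, adjusted p = 0.232). The effect differed among lines (adjusted p = 4.40e-08), although the SK-N-DZ decrease was not called with the GC and length correction (-0.30, adjusted p = 0.0715).

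ARG2, the mitochondrial arginase that makes ornithine, was lower in KELLY (-1.79, adjusted p = 0.0228) and SK-N-DZ (-1.65, adjusted p = 0.0432) on few counts. These were 6 and 15 with BRM014 and 37 and 33 with DMSO in KELLY, and 11 and 1 against 34 and 53 in SK-N-DZ, and each call was lost on leaving out any 1 of 3 libraries. In KELLY the value was -1.29 (adjusted p = 0.299) without BRM014 replicate 1, -1.87 (0.0679) without DMSO replicate 1 and -1.70 (0.0971) without DMSO replicate 2, while without BRM014 replicate 2 it was -2.57 and called. In SK-N-DZ it was -0.76 (adjusted p = 0.519) without BRM014 replicate 2, -1.86 (0.0532) without DMSO replicate 1 and -1.37 (0.245) without DMSO replicate 2, while without BRM014 replicate 1 it was -4.20 and called. With the GC and length correction ARG2 was not called in SK-N-DZ (-1.61, adjusted p = 0.06 by edgeR) and stayed called in KELLY (-1.76, adjusted p = 0.0261). The SK-N-DZ call was also lost with only the groups of the comparison (-1.62, adjusted p = 0.0596). MAT2A, which makes S-adenosylmethionine, the substrate of AMD1, had 631 and 722 CPM with BRM014 and 855 and 923 CPM with DMSO in KELLY (-0.35, SE 0.08, adjusted p = 0.00118 by edgeR) and 1035 and 1035 CPM against 1328 and 1246 CPM in SK-N-DZ (-0.31, SE 0.08, adjusted p = 0.00349). MAT2A was not called in KELLY without BRM014 replicate 1 (-0.27, adjusted p = 0.102) or in SK-N-DZ without DMSO replicate 1 (-0.24, adjusted p = 0.106). By role, the 8 genes of the methionine cycle and methylthioadenosine salvage had 3 lower in SK-N-DZ, 1 in KELLY and 0 in IMR-32, and none was higher in any of them. Of all genes, 9.55%, 4.98% and 6.57% were called lower in these lines, and 9.88%, 6.57% and 6.26% higher. Besides MAT2A, those lower in SK-N-DZ were AHCY and MTAP, named after their values were seen. AHCY and MTAP were not checked with the GC and length correction or without single libraries. Of the 4 hypusine genes, which use spermidine to modify the translation factor EIF5A, EIF5A was called in SK-N-DZ (-0.52, adjusted p = 0.0102) and in none of the other 3 treatment comparisons, a gene named after its values were seen. EIF5A transcripts have 57.3% GC, and this call was likewise not checked under those alternatives. DHPS, DOHH and EIF5A2 were not called in any of the 4, and the 2 tested genes of catabolism, SMOX and SAT2, were not called in any treatment comparison.

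**Figure D5:**
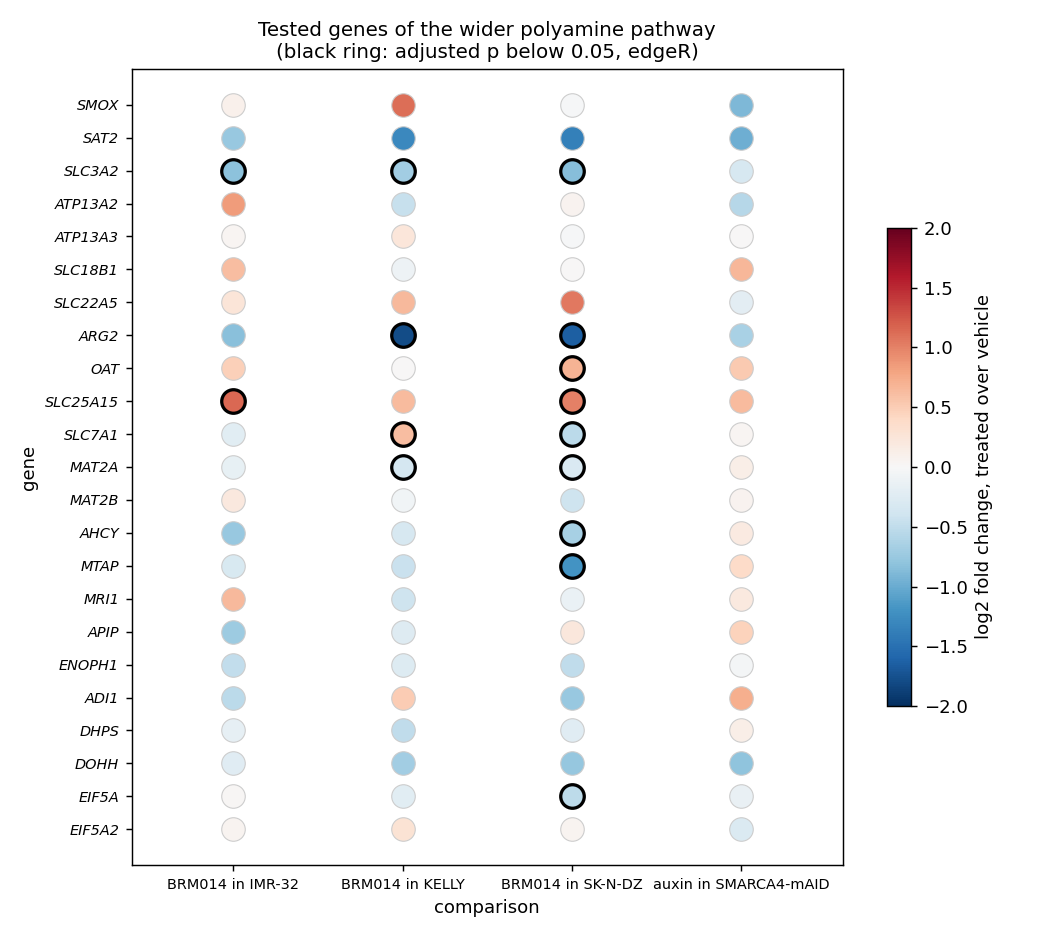
Log2 fold change, treated over vehicle, of the 23 tested genes of the wider list in the 4 treatment comparisons, in colour, with a black ring for an adjusted p below 0.05 by edgeR. SLC3A2 is ringed and blue in all 3 lines, SLC7A1 is ringed red in KELLY and blue in SK-N-DZ, and the auxin column has no ring.

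The genes whose level followed ODC1 most closely were looked for among 8262 genes with a mean of at least 20 CPM, by Pearson's r of log2(CPM + 1) over the 16 labelled libraries, which share treatments, lines and depth. They were HAND2-AS1 (0.93), PKM (0.92), GLCE (0.92), RIMS3 (0.91) and GAL (0.91). For SAT1 they were RRM2B (0.81), HDDC2 (0.78), ARHGAP27P1-BPTFP1-KPNA2P3 (0.75), UBLCP1 (0.72) and FAM89A (0.68), and SAT1 itself was below 20 CPM in all but 1 of these libraries. Leaving out 1 library kept 2 to 5 of the 5 genes in both lists.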

How the data were processed

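Messenger RNA labelled with 4sU was sequenced in 16 labelled and 2 unlabelled libraries. The authors deposited raw counts per gene symbol, which they name conversion counts. The submitters' processing notes name HISAT, HTSeq, DESeq2 and hg38, with no version or role. How a read was judged converted, and whether strand was used, is not stated. Between 46.4% and 57.4% of reads in labelled libraries carried no feature, and all 5 summary lines stayed out of totals and tests. CPM was computed over the gene counts of a library. The quasi-likelihood test in edgeR 4.0.16 (R 4.3.3, TMM, filterByExpr) was run on all 16 labelled libraries as group means, with 8 residual degrees of freedom, over 12853 genes. Calls required an adjusted p (Benjamini-Hochberg) under 0.05. On simulated KELLY data, with 12081 genes tested, 200 genes above a minimum level were changed, against 1485 called in the real comparison. Of genes changed by 0.6 on the log2 scale 27% were recovered, and of those changed by 1, 75%, with 7 false calls. These rates need not hold for the real comparison or for genes with few counts, such as SAT1. Alternatives were DESeq2 1.42.0, other scalings, no filter, fewer groups, a replicate block, a correction for GC content and length by splines (GENCODE 29, 97.4% of tested genes), and leaving out each library. Replicates of a group differed by more than sampling noise, with chi-square per degree of freedom of 2.36 to 3.31. The floor for 0 counts covers counting error only. The members, lists and tests were chosen with earlier results of these data known. Named genes were the members, MYCN, MYC, SMARCA4, up to 4 called genes of the wider list per treatment comparison by smallest p, and the 5 genes most correlated with ODC1 and with SAT1. Promoter windows of members outside chr8 were matched by symbol to RefSeq GRCh38.p14.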

Additional observations from a re-analysis of the deposited data

Results flagged for a closer look

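The BRM014 effect on SMS differed among the 3 lines (edgeR test of 2 contrasts, adjusted p = 0.0321), with log2 fold changes of 0.60 in IMR-32, -0.21 in KELLY and -1.15 in SK-N-DZ. Both BRM014 libraries were above both DMSO libraries in IMR-32 and below them in KELLY and SK-N-DZ. The adjusted p was 0.0128 to 0.181 when single libraries were left out.

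The effect on MYCN differed among lines (adjusted p = 1.75e-16), with -0.45 in IMR-32, -0.52 in KELLY and 0.44 in SK-N-DZ. MYCN also differed between the BRM014 effect in IMR-32 and the auxin effect in the degron line, by -0.60 (edgeR, adjusted p = 1.22e-06). The auxin value was 0.15 (adjusted p = 0.255, not called). With the GC and length correction the IMR-32 value was -0.09, the auxin value 0.29 (adjusted p = 0.000306) and their difference -0.38 (adjusted p = 0.00136). ODC1 was lower with BRM014 in all 3 lines, and whether its change is linked to that of MYCN was not tested.

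The effect on SLC7A1 differed among lines (adjusted p = 4.4e-08), with 0.62 in KELLY, -0.53 in SK-N-DZ and -0.22 in IMR-32.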

How the results depend on the processing

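Values are listed by alternative, and the cause of a change was not tested. The count of members whose BRM014 effect differed among lines, 1 in the report, was 2 with RLE size factors, library totals, only the groups of the comparison, the replicate block, DESeq2, and the block with GC and length correction, AZIN1 being the second, and 0 without the filter. Of all genes, 831 were called among lines in the report and 765 to 849 under these alternatives. With the GC and length correction, with or without the block, IMR-32 had 1 member called with BRM014 (2 in the report), SK-N-DZ 4 (6), 3 lower and 1 higher, the mean over lines 4 (4), 3 lower and 1 higher, BRM014 minus auxin 1 (0), SK-N-DZ over KELLY 1 (2) and the degron line over IMR-32 2 (1). KELLY had 4 with the correction alone and 3 with the block as well (3 in the report). Of all genes, the correction alone called 1401 in IMR-32 (1650 in the report), 1758 in SK-N-DZ (2498) and 1231 in KELLY (1485). It called 2946 in the mean (3879) and 225 for BRM014 minus auxin (250). For SK-N-DZ over KELLY it called 3737 (4091), and for the degron line over IMR-32 762 (792). With the block and this correction, auxin had 1 (AMD1, -0.34, adjusted p = 0.0492) and OAZ1 in KELLY was not called (-0.71, adjusted p = 0.0522). With auxin 290 of all genes were called under that setting, against 281 in the report. Leaving out single libraries gave 1 to 3 called members in IMR-32, 2 to 3 in KELLY, 3 to 6 in SK-N-DZ, 0 to 0 with auxin and for BRM014 minus auxin, 4 to 4 in the mean, 0 to 2 among lines, 2 to 4 in KELLY over IMR-32, 4 to 5 in SK-N-DZ over IMR-32, 1 to 2 in SK-N-DZ over KELLY and 1 to 1 in the degron line over IMR-32. The shares of all genes called without single libraries are not given here.

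Signs turned only for values that were not called. The SAT1 mean over lines, 0.01 in the report, was -0.026 with library totals, -0.014 without the filter and -0.0091 with the GC and length correction. With that correction, alone and with the block, OAZ2 in IMR-32 was 0.16 and 0.16, SRM in KELLY 0.11 and 0.12, and the AZIN1 mean -0.042 and -0.043. Without single libraries OAZ2 ranged over -0.24 to 0.049 in IMR-32 and -0.11 to 0.29 in KELLY, SAT1 over -0.27 to 0.94 in the mean and -0.58 to 0.31 in SK-N-DZ, and with auxin SLC7A1 over -0.10 to 0.17, SMS over -0.36 to 0.15 and AZIN1 over -0.23 to 0.076. AMD1 was called in each BRM014 comparison, and ODC1 in KELLY and SK-N-DZ, under all alternatives run.

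Same-numbered libraries showed little shared deviation, with correlations of 0.003, -0.04, 0.014 and -0.014. Whether they were handled together is not stated in the labels, and these values cannot show it. The block alone changed no call of a treatment comparison and moved the count among lines to 2, as above. Low counts limit SAT1 in all groups and SRM in IMR-32.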
